A study of Homo sapiens with 2 samples.

Results

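Of the 2804 barcodes that passed limits on depth and mitochondrial RNA, out of 3298 barcodes in the joint RNA and chromatin table, 297 (10.6%) formed the set described here, named after the glutamate receptor gene GRIA4. They were selected on 4 RNAs whose UMIs (unique molecules) were summed in each barcode: GRIA4, LINC01980, LINC01456 and PMCH. A member had a sum of at least 2 UMIs, and that sum made up at least 70% of the UMIs of 5 such gene groups together. The same rule applied to the other 4 gene groups gave the comparison sets: 746 barcodes by RBFOX3 and 4 further genes, 400 by S100A9 and 3 more, 513 by SLC30A8 and 3 more, and 250 by DHRS2 and 3 more. No barcode fell in more than 1 set, and 598 fell in none. Every barcode carried both RNA and chromatin counts, so each was counted once. No doublet caller was run, and the 70% rule left out only barcodes in which other marker RNA exceeded 30% of the sums: 121 of the 297 members held at least 1 UMI of another group.

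The study set out to make a benchmark for single-cell chromatin accessibility methods. Lung adenocarcinoma lines (HCC827, A549, H838, H1975 and H2228, 5 in all) were grown separately in the same serum-supplemented medium with antibiotics, without treatment, to near confluence, frozen as single-cell suspensions and mixed in equal proportions. They were captured together in 1 tube, and the 80% fraction of that tube gave the 1 RNA library and the 1 ATAC-seq library analysed here (ATAC-seq reads where a transposase can reach the DNA). Each line was therefore 1 culture, and no comparison between sets had a replicate. Intervals of CPM levels are exact Poisson 95% intervals, cover counting error only, and treat barcodes of 1 library as 1 sample. The Wilson interval given for a motif share treats promoters as independent.

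HCC827 is an established line known for a mutated and amplified EGFR, the gene of the epidermal growth factor receptor. This receptor binds ligands such as amphiregulin and epiregulin, pairs with other ERBB receptors and signals through the RAS and MAPK cascade, and lung adenocarcinomas with mutated EGFR often keep the gland-like, NKX2-1-expressing character of the distal airway. A gene that is amplified in a tumour can carry its neighbours with it, and open DNA in extra copies also gives extra ATAC-seq fragments.

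The label HCC827-like was checked against markers other than the 4 rule genes. Of 6 such HCC827 markers, 5 had their top level in the GRIA4 set (EGFR, LANCL2, VOPP1, SEC61G and CEACAM5), and CEACAM6 was highest in the RBFOX3 set. Of 7 A549 markers and 4 H838 markers, 0 were highest here, and of 5 H2228 markers 1 was (ALK, with 84 UMIs, at nearly the level of the S100A9 set). Of 5 markers listed for H1975, 3 were also highest here, NKX2-1, SFTA3 and SFTPB, while VIM and CD274 were not. EGFR, LANCL2, VOPP1 and SEC61G are neighbours in a single raised region of chromosome 7, and CEACAM5 stood at only 16.9 CPM. The label HCC827-like therefore rests mainly on that region. The H1975 list was not fully separated, and no genotype was read.

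Start regions of 5 genes are printed because the data bear on each of them. GRIA4 and PMCH are rule genes whose RNA was seen with few or no accessible fragments at the start, though PMCH RNA was in only 23 members. CLDN4 and SFTA2 stand for epithelial and lung-lineage genes, and CDK4 for a short stretch of raised accessibility. Each sequence runs from 250 bases before to 50 bases after the RefSeq start of the gene (GRCh38.p14), 300 bases in all, 5′ to 3′ on the gene's strand, with matches to any of the 8 motifs searched in capitals. They lie at chr11:105610456-105610755 (plus strand), chr12:102197784-102198083 (minus), chr7:73830746-73831045 (plus), chr6:30932121-30932420 (minus) and chr12:57752261-57752560 (minus).
GRIA4: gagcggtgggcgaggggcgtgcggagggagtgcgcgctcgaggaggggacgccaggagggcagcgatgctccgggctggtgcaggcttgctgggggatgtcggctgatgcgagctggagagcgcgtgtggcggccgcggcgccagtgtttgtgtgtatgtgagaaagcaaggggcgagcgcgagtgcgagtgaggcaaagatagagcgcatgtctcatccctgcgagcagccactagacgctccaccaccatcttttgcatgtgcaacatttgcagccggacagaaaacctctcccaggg
PMCH: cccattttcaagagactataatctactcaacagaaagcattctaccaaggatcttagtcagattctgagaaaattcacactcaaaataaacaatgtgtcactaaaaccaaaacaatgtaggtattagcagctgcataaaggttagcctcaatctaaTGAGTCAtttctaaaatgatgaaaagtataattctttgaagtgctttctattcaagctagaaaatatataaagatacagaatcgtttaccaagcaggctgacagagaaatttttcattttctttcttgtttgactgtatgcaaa
CLDN4: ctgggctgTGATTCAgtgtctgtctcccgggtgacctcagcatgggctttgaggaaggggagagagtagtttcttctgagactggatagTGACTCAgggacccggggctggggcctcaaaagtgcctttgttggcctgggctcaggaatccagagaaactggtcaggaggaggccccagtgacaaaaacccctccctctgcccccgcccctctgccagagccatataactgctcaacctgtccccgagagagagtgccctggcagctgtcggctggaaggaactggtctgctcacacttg
SFTA2: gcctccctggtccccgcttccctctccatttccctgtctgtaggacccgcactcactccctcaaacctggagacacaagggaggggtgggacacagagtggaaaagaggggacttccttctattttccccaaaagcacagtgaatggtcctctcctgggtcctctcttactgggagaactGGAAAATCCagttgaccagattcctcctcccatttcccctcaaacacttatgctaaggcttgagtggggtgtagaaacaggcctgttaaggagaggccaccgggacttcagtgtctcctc
CDK4: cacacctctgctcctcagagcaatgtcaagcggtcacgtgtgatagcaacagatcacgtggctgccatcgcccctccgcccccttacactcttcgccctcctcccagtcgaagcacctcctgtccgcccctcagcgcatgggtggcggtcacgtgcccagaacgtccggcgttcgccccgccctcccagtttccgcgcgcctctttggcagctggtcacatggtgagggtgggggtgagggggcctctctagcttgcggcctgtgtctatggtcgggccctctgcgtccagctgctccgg
The capitals mark 2 AP-1 matches in CLDN4 at bases 9 and 90, 1 AP-1 match in PMCH at base 157 and 1 NF-kB match in SFTA2 at base 181, counted from 1 at the 5′ end. GRIA4 and CDK4 held none of the 8 motifs in this window.

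The barcodes of the GRIA4 set had a median of 12885 UMIs, 4483 genes and 13071 peak counts, the fewest peak counts of the 5 sets, against medians of 17920 to 33820 peak counts in the others. Mitochondrial RNA made up 14.2% of the UMIs of the median member and ranged from 0.0615% to 20.0%. The medians were 8.88% in the S100A9 set and 12.3% in the DHRS2 set, but 0.435% in the RBFOX3 set and 0.463% in the SLC30A8 set. The 2 sets with the lowest mitochondrial share also had the lowest median shares of ribosomal protein RNA, 1.21% and 1.83% against 3.25% in members. Mitochondrial and ribosomal protein RNA thus moved with the sets, and their part in the RNA differences below was not tested. A further 111 barcodes met the marker rule above the 20% mitochondrial limit, 27.2% of the 408 without that limit, compared with 51, 4, 5 and 55 barcodes in the RBFOX3, S100A9, SLC30A8 and DHRS2 sets.

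The 4 rule genes chose the members, so their levels are a description. GRIA4, a subunit of AMPA-type glutamate receptors, stood at 167 CPM (UMIs scaled to 1000000 per set, interval 155 to 179) in the members and at 1.99 to 3.87 CPM in the comparison sets. The long noncoding RNAs LINC01980 and LINC01456 stood at 134 and 121 CPM, with 2.12 to 5.20 CPM elsewhere. PMCH, which encodes the precursor of melanin-concentrating hormone, stood at 45.1 CPM against at most 1.41 CPM. The comparison barcodes should lack these RNAs, but the set rule also limited how much of them such a barcode could hold. Their low levels follow in part from that selection and are not an independent measure of stray RNA. A GRIA4 UMI was held by 1.48% to 5.25% of the comparison barcodes and by 78.1% of members, a contrast shaped by the same rule. Median depths were 4747 to 15344 UMIs in the comparison sets and 12885 in members.

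**Figure D1:**
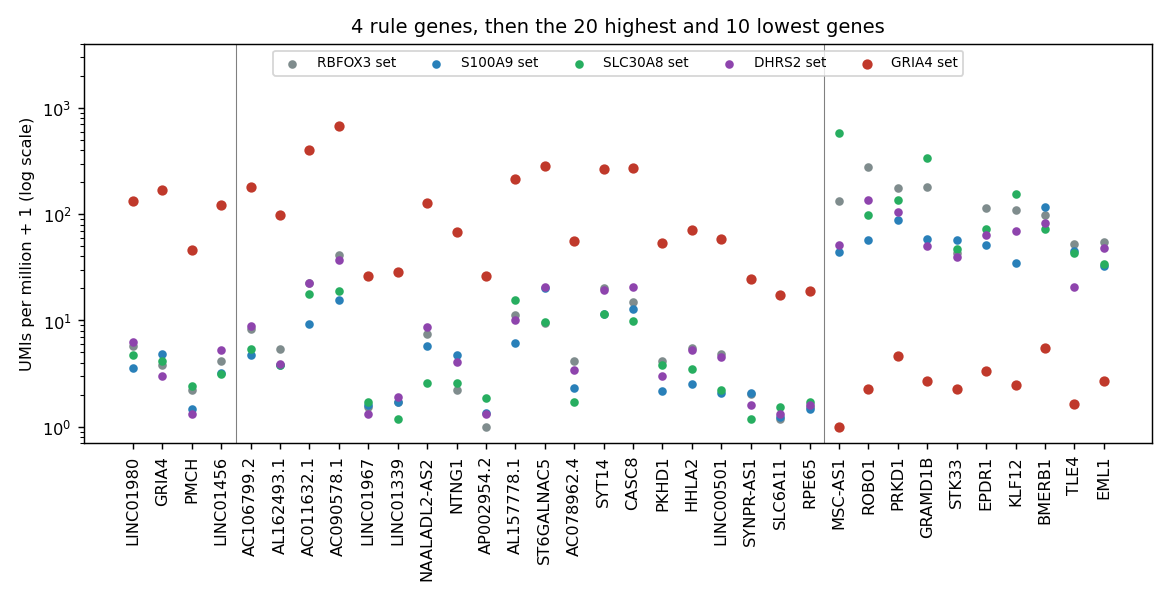
CPM plus 1 on a log axis, in each of the 5 sets (1 point per set, no replicates), for the 4 rule genes, the 20 genes highest in the GRIA4 set and the 10 lowest. The red points of the GRIA4 set lie above all others in the first 24 columns and below all others in the last 10, where MSC-AS1 was at 0.

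The 4 rule genes were spread over the members very differently. GRIA4 was found in 232 of the 297 members, LINC01980 in 236 and LINC01456 in 221, with at most 14, 14 and 15 UMIs in 1 barcode. PMCH was found in 23 members (7.74%), and the 10 members with most PMCH held 184 of its 213 UMIs (86.4%). PMCH was the only rule gene seen in 1 member, so it hardly decided who was a member. The members just inside the threshold, 23 barcodes with a sum of 2 UMIs, had a median of 1.23% of their peak counts within 500 kb of the EGFR start. The 23 barcodes just outside it, with a single UMI of the 4 genes and none of the other groups, had a median of 1.21%. Of barcodes with at least 2 UMIs of the 4 genes, 36 at 60% to 70% of the 5 sums had a median of 1.04%, and 127 below 60% had 0.270% with a median depth of 40466 UMIs.

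Apart from the minimum of 1000 peak counts per barcode, the rule used no chromatin count, and the position of the peaks played no part in it. The share of peak counts within 500 kb of the EGFR start was 1.06% in the members pooled, 9.69 times the next highest set, DHRS2, at 0.110%. It was 0.0817% in the RBFOX3 set, 0.0846% in the S100A9 set and 0.0496% in the SLC30A8 set. Among single members it ranged from 0 to 3.69% with a median of 1.07%. The comparison barcodes had medians of 0.0357% to 0.0779%. The 2 distributions overlapped little: 5 of 297 members lay at or below 0.131%, the 95th percentile of the comparison barcodes, and 13 of 1909 comparison barcodes lay at or above 0.452%, the 5th percentile of the members. Within 5% to 20% mitochondrial RNA in every set the pooled ratio was 5.36, with the members at 1.07%.

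**Figure D2:**
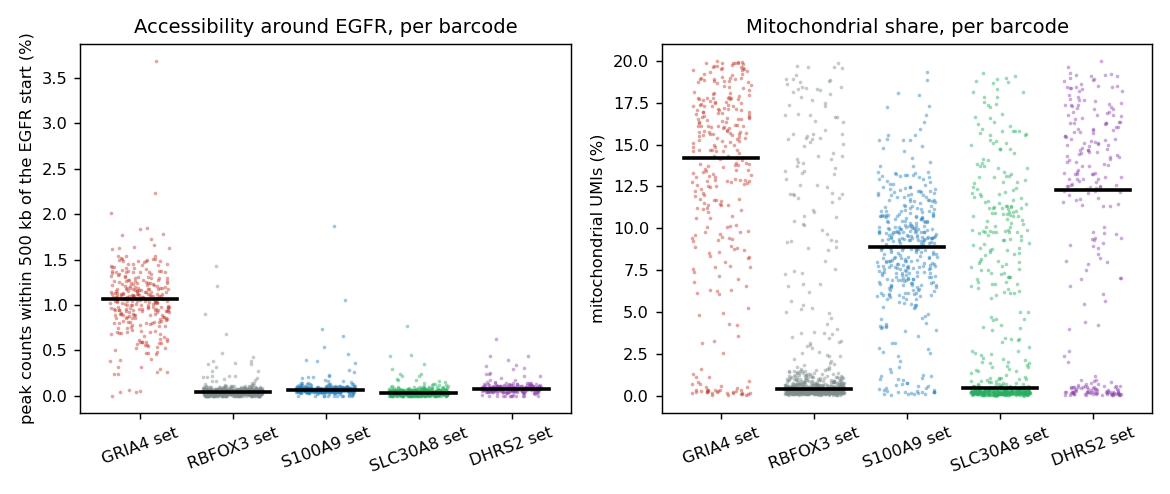
Left, percent of each barcode's peak counts within 500 kb of the EGFR start, and right, percent mitochondrial UMIs, for the 5 sets (1 point per barcode, black lines are medians). The GRIA4 set has a median of 1.07% on the left against 0.0357% to 0.0779% in the others, and the highest median on the right, 14.2%.

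EGFR RNA was seen in every member, at 115 to 38251 CPM with a median of 6483. The comparison sets had medians of 116 to 704 CPM, with single barcodes up to 41110 in the S100A9 set. Pooled, EGFR stood at 7560 CPM in the members (interval 7482 to 7639) and at 350 to 995 in the other sets. Its neighbours were high too: LANCL2 at 690 CPM against at most 81.8, VOPP1 at 1710 against at most 223, and SEC61G, a subunit of the channel that passes proteins into the endoplasmic reticulum, at 553 against at most 101. The peak over the EGFR promoter stood at 561 CPM (peak counts scaled in the same way) against at most 58.3. Across the 297 members, the window share and EGFR CPM had a Spearman correlation of 0.38, and EGFR CPM and mitochondrial share one of 0.01. These are descriptions over barcodes of 1 culture.

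Across all chromosomes, 50 of 2697 bins of 1 Mb held at least 2 times the share of the highest comparison set (1.85%), and 23 held at most 0.5 times that of the lowest (0.853%). Chromosome 8 held 16 of the 50 higher bins, and chromosomes 1 and 21 held 6 each. Chromosome 10 held 11 of the 23 lower bins, 10 of them between 0 and 17 Mb, the first bins of its short arm. RNA of the genes in these bins lay on the same side. A gene or peak is called highest where it stood at least 2-fold above every comparison set after 1 CPM was added to each level, and lowest where it stood at least 2-fold below every one. Over all genes tested, 2.93% were highest and 2.57% lowest. Of 239 genes tested in the higher bins, 84 (35.2%) were highest in members and 1 was lowest, with a median log2 ratio to the mean log2 level of the 4 comparison sets of 1.22. Of 93 genes in the lower bins, 29 (31.2%) were lowest and 0 highest, with a median of -1.40. The 19406 genes in all other bins had a median of -0.21, with 2.54% highest and 2.46% lowest.

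In all 16 shorter stretches stood out in a search chosen after seeing the data: at least 2 neighbouring bins of 100 kb, each at least 3 times the highest comparison set, with at least 20 peaks. The 4 with the largest ratios lay on chromosomes 6, 7 and 12. The stretch at chr6:11.5-11.9 Mb stood at 11.1 times the highest comparison set, and the 500 kb on its left and right at 0.70 and 0.55 times. The stretch around EGFR, chr7:54.5-55.6 Mb, stood at 9.63 times with flanks at 2.23 and 2.70. Those on chromosome 12 stood at 5.75 times (57.6-57.8 Mb, flanks 1.33 and 0.76) and 6.19 times (64.4-64.9 Mb, flanks 0.81 and 1.03). Beside the 3 stretches on chromosomes 6 and 12, accessibility was within 1.33 times the highest comparison set, while around EGFR it was raised on both sides. The 16 stretches held 3.10% of the members' peak counts. Of all tested peaks 3.49% were highest and 1.99% lowest. The stretches held 342 of the 3752 highest peaks (9.12%), compared with 453 of all 107414 tested peaks (0.42%). Their choice from the same peak counts makes the first share high. Restricted to 5% to 20% mitochondrial RNA, the 4 ratios were 5.75, 5.39, 4.56 and 3.94.

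RNA of most, not all, genes in these 4 stretches was high. All 6 genes with at least 50 UMIs in the EGFR stretch were highest in members, as were 8 of 9 in the TBK1 stretch, 4 of 11 around OS9 and 1 of 2 around ADTRP. In the first stretch on chromosome 12, OS9, a lectin that sorts misfolded proteins for degradation, stood at 1531 CPM against at most 236. TSPAN31 stood at 334 CPM against at most 45.8. CDK4, the kinase that drives cells past the G1 checkpoint, stood at 456 CPM (interval 437 to 476) against at most 75.8. PIP4K2C, a lipid kinase gene just left of this stretch, was high as well, at 275 CPM against at most 37.8. TSFM, beyond CDK4 but inside the stretch, stood at 20.1 CPM against 20.0 to 25.4, and B4GALNT1 had 2 UMIs. In the second, TBK1, a kinase of innate immune signalling, stood at 1029 CPM against at most 185. RASSF3 stood at 556 CPM against at most 129 and TBC1D30 at 289 against at most 35.7. XPOT, at the left border, stood at 110 CPM within the range of the other sets, 77.0 to 179. On chromosome 6, ADTRP stood at 54.2 CPM against at most 5.82 and TMEM170B at 24.8 against at most 12.4, just under the 2-fold limit. The median log2 ratio of gene RNA to the highest comparison set was 2.38 inside the TBK1 stretch and -1.48 in the 500 kb on either side. Inside the ADTRP stretch it was 1.98, over 2 genes only, and -2.95 beside it. The contrast was smaller around OS9, -0.32 inside and -1.12 beside, and around EGFR, 2.92 inside and 1.15 beside, where 6 of 7 flanking genes were highest.

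**Figure D3:**
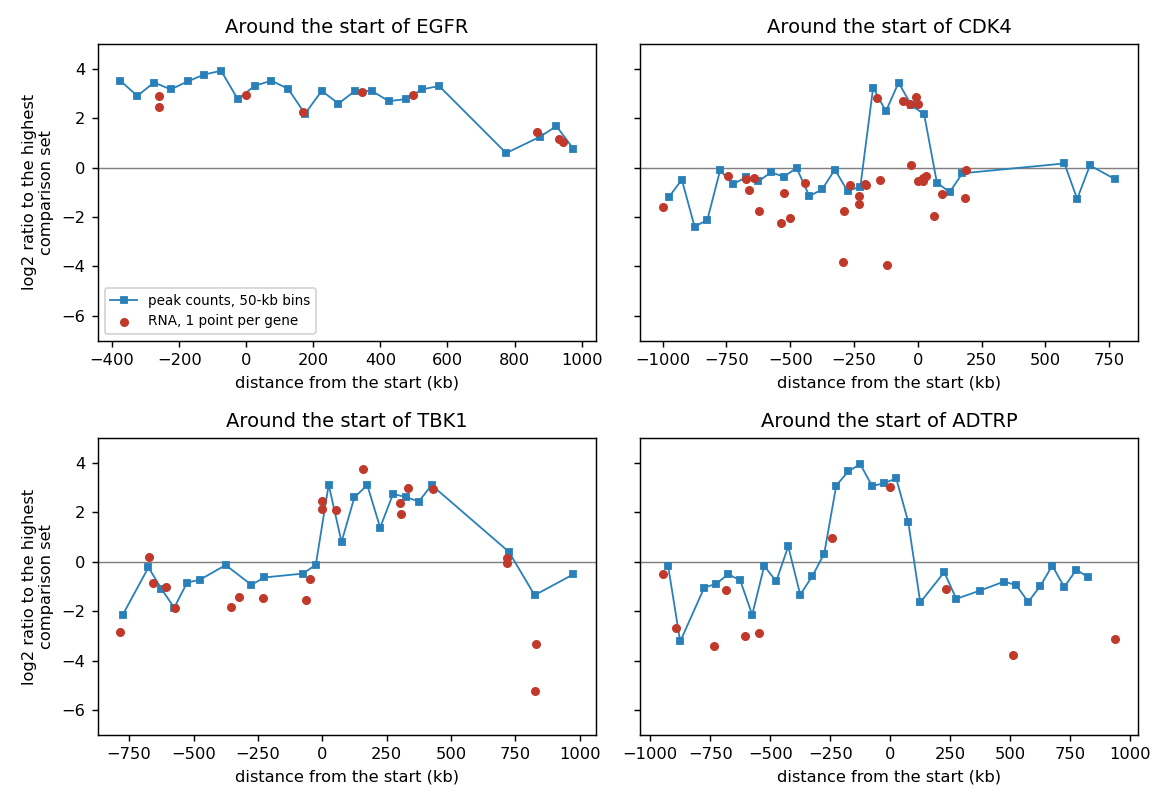
Log2 ratio of the GRIA4 set to the highest comparison set against distance in kb from the starts of EGFR, CDK4, TBK1 and ADTRP (blue squares, peak counts in 50-kb bins with at least 500 counts, red points, RNA of single genes). Peak counts stand above 0 within a block in each panel and near or below 0 outside it, except around EGFR, where points to the right of the block also lie above 0. RNA is mixed inside the CDK4 block, where 4 of 11 genes were highest.

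Start peaks were also high for 4 genes of these stretches whose RNA was high, chosen after their values were seen. The peak over the CDK4 promoter printed above held 1187 CPM against at most 134, that of OS9 991 against at most 90.6, and that of TBK1 442 against at most 51.6. The ADTRP start peak held 30.4 against at most 4.10. The remaining 12 stretches stood at 3.31 to 4.92 times: 10 lay on chromosome 8 and 2 on chromosome 21. Among their genes were STAU2 at 1325 CPM against at most 290, UBE2W at 1078 against at most 224 and, on chromosome 21, the adenovirus receptor gene CXADR at 372 against at most 106. Not all genes inside followed: GDAP1 stood at 6.14 CPM in members against 12.9 to 31.1. Copy number was not measured here, and more copies and more open DNA per copy cannot be told apart.

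The stretches also varied from member to member. Over the 174 members with at least 10000 peak counts, the shares of the stretches around OS9 and TBK1 had a Spearman correlation of 0.53. That around ADTRP on chromosome 6 had 0.47 with TBK1 and 0.38 with OS9, and EGFR had 0.28 with ADTRP and 0.20 with TBK1. The 45 pairs of stretches on chromosome 8 ran from 0.00 to 0.30 with a median of 0.15. The 40 pairs of a chromosome 8 stretch with one on chromosomes 6, 7 or 12 had a median of 0.04. Correlations with total peak counts lay between -0.17 and 0.17. Shares of 1 barcode add up to a fixed total and the smaller stretches hold few counts, so low values are uninformative.

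**Figure D4:**
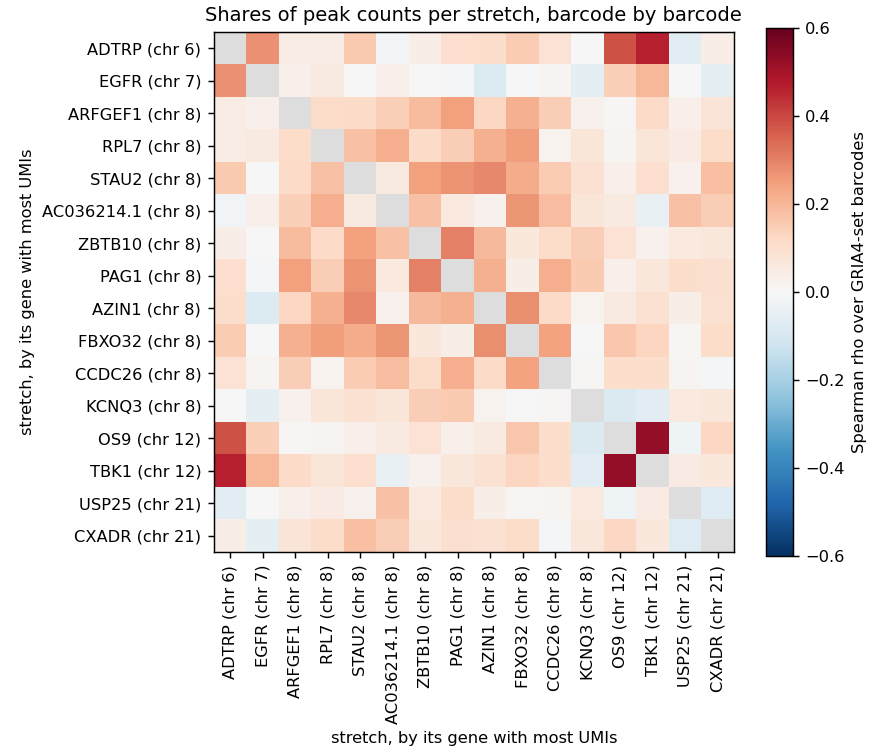
Spearman correlation, over 174 GRIA4-set barcodes with at least 10000 peak counts, between the shares of peak counts in each pair of the 16 stretches, which are named by their gene with most UMIs. The darkest cells join the stretches around ADTRP, OS9 and TBK1 (0.38 to 0.53), on chromosomes 6 and 12.

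At the GRIA4 promoter chromatin and RNA differed. The peak over the GRIA4 promoter held 0 of the members' 5627110 peak counts, against 53 counts (2.53 CPM) in the S100A9 set. The PMCH promoter peak held 7 counts in members and 0 to 10 in the other sets. PMCH RNA was seen in only 23 of the 297 members, so this pooled count cannot show whether its chromatin and RNA differed. No peak lay over the LINC01980 promoter. Of 39 tested peaks within 1 Mb of GRIA4, 2 were highest in members, the nearer 349 kb from the gene entry at 15.8 CPM against at most 2.01. Near PMCH 3 of 42 were highest, near LINC01456 2 of 53 and near LINC01980 1 of 46. The background was 3.49% of peaks highest and 1.99% lowest, so the counts near GRIA4, LINC01456 and LINC01980 were close to it. The neighbours of GRIA4 were not highest in members: MSANTD4 stood at 17.8 CPM against 10.8 to 29.8, and AASDHPPT at 24.1 against 25.3 to 60.7. CARD18, on the other side, stood at 16.1 CPM, below the 723 of the SLC30A8 set but above the 4.6 to 9.2 of the other sets. LINC01967, the next gene entry beyond LINC01980, stood at 25.2 CPM against at most 0.71.

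Over all genes, 581 of 19833 were at least 2-fold above every comparison set (2.93%) and 509 at least 2-fold below every one (2.57%), on CPM plus 1. The RNA comes from the barcodes chosen by their RNA, so these counts describe the set. Of the 581, 439 had a RefSeq type, and 18.7% of those were long noncoding RNAs, compared with 9.65% of all typed genes tested and 7.95% of those lowest. The 20 with the largest ratios outside the EGFR window included AC106799.2 on chromosome 5 at 181 CPM against at most 7.81, AC011632.1 on chromosome 8 at 399 against at most 21.7, and CASC8, also on chromosome 8, at 270 against at most 19.6. Among protein-coding genes were ST6GALNAC5, a sialyltransferase, at 281 CPM against at most 19.6. SYT14, of the synaptotagmin family, stood at 268 CPM against at most 19.4. NTNG1, a netrin-like guidance protein of neurons, stood at 66.5 CPM against at most 3.76. HHLA2, a B7-family ligand of T cells, stood at 69.7 against at most 4.55, and PKHD1, the gene of polycystic kidney and hepatic disease, at 52.5 against at most 3.15. SLC6A11, a GABA transporter, stood at 16.3 CPM against at most 0.53, and RPE65, a retinoid isomerase, at 18.0 against at most 0.71. Of the 20, 3 lay in a higher 1 Mb bin and 1 of these in a stretch, AC078962.4 beside TBK1.

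The 10 lowest genes were ranked by the ratio to the lowest comparison set, so their presence in all 4 other sets follows from the ranking. MSC-AS1 had 0 UMIs in the members, at least 67.4-fold lower than the 42.8 CPM of the S100A9 set with a floor of 3 UMIs over the members. ROBO1, a receptor for SLIT guidance proteins, stood at 1.27 CPM (6 UMIs) against 56.0 to 277. PRKD1, a protein kinase D, stood at 3.60 CPM against 86.4 to 175, and GRAMD1B, a cholesterol transfer protein, at 1.70 against 48.7 to 338. KLF12, a zinc-finger repressor, stood at 1.48 CPM against 33.7 to 155, and TLE4, a corepressor, at 0.64 (3 UMIs, interval 0.13 to 1.86) against 19.6 to 51.4. STK33, EPDR1, BMERB1 and EML1 stood at 1.27 to 4.45 CPM with at least 31.6 in every other set.

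Start peaks lay on the same side as RNA for part of the genes. Of 437 highest genes with a tested peak along their entry or within 1000 bases of it, 161 (36.8%) had one highest in members. This compares with 4.13% of all 16793 such genes and 7 of 461 lowest genes (1.52%). An entry can be a long span, so these peaks need not lie at a start. Over RefSeq promoters alone the shares were 25.1% of highest genes and 0.931% of all. The start peaks of SLC6A11 (14.2 CPM against at most 1.69), PKHD1 (10.1 against at most 1.15) and HHLA2 (8.18 against at most 1.71) were highest in members. The start peaks of PRKD1 (5.51 against 17.8 to 23.9), EPDR1 (4.80 against 19.4 to 31.3) and EML1 (4.09 against 11.2 to 32.5) were at least 2-fold below every set. That of TLE4 was not, at 43.0 CPM against 35.7 to 107. Of the peaks highest in members, 68.7% lay more than 2000 bases from any gene entry, compared with 63.6% of all tested. The largest ratio of a peak outside the EGFR window was at chr6:11803003-11803895, in the ADTRP stretch, with 38.6 CPM (interval 31.6 to 46.5) against at most 1.24. All 8 peaks with the largest ratios lay in or beside a stretch: 6 on chromosome 6, 1 near PIP4K2C on chromosome 12 and 1 in VOPP1. The stretches were chosen by the same ratio in the same peak counts, which makes this overlap likely by itself.

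In the 301 RefSeq promoters of highest genes, the AP-1 motif TGANTCA was present in 34 (11.3%, Wilson 95% interval 8.20 to 15.4), compared with 674 of 12631 promoters of all tested genes (5.34%) and 15 of 338 of the lowest genes (4.44%). Motifs were read on both strands. In highest genes against all, GRHL (AACCNGTT) was at 2.33% against 1.46%, FOXA (TGTTTAC) at 1.99% against 2.49% and NKX2 (CACTTGA) at 1.99% against 1.89%. TEAD (ACATTCC) was at 2.99% against 2.4% and ETS (CAGGAAG) at 13.6% against 12.6%. HNF1 (TTAATNATT) was at 1.33% against 0.831% and NF-kB (GGANTTTCC) at 2.33% against 1.60%. AP-1 had the largest difference of the 8 motifs, and its interval does not allow for that number of searches. The motifs overlap nowhere in the 5 printed regions. A match is a string of letters and not a shown binding site.

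Epithelial genes were the list with most members called. Of 26 tested, 13 were highest in the GRIA4 set and 0 lowest, against 2.93% and 2.57% of all genes tested. The median log2 ratio to the mean log2 level of the comparison sets was 2.18, against -0.21 over all genes tested. Where only the S100A9 and DHRS2 sets served as comparison, the median was 1.51. EPCAM, a surface adhesion protein, stood at 710 CPM against at most 298. CDH1, the adherens-junction protein E-cadherin, stood at 350 against at most 98.6. The tight-junction claudins CLDN3, CLDN4 and CLDN7 stood at 114, 198 and 339 CPM against at most 21.4, 68.6 and 102. GRHL1, a grainyhead-like transcription factor, stood at 18.0 against at most 5.05. The keratin KRT8 was not highest, at 195 CPM against 96.4 to 295. Start peaks of CLDN3 (81.4 CPM against at most 23.2) and CLDN7 (19.4 against at most 6.68) were highest in members. That of CLDN4 stood 1.46-fold above the next set, under the 2-fold limit, and that of GRHL1, 55.1, lay below the 76.0 of the RBFOX3 set.

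The mesenchymal list ran the other way, with 6 of 20 tested genes lowest in members, 1 highest and a median of -1.86. All genes tested had 2.57% lowest, 2.93% highest and a median of -0.21. VIM, the intermediate filament of mesenchymal cells, stood at 49.8 CPM against 173 to 847. The repressors ZEB1 and ZEB2 stood at 39.6 and 2.97 CPM against 157 to 512 and 29.7 to 62.2. AXL, a receptor tyrosine kinase, stood at 17.8 CPM against 56.6 to 64.5, and its start peak at 1.60 CPM against 8.30 to 41.4. FAP was also lowest, at 2.54 CPM, and LUM (17 UMIs) was the 1 highest gene. VIM and ZEB1 both lie on the short arm of chromosome 10, though in bins that were not called lower.

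Genes of the distal lung were divided. Of 15 tested, 8 were highest and 0 called lowest, with a median of 1.99, while 6 lay below the mean log2 level of the comparison sets. Among all genes tested 2.93% were highest and 2.57% lowest, with a median of -0.21. NKX2-1, the transcription factor that specifies lung epithelium, stood at 90.5 CPM against at most 30.4. SFTA3, whose gene lies beside NKX2-1, stood at 164 against at most 41.3, and SFTA2 at 56.4 against at most 7.70. NAPSA, the protease napsin A, stood at 98.9 CPM against at most 40.4, and LPCAT1, which makes surfactant lipid, at 452 against at most 185. FOXA1 stood at 37.7 CPM against at most 18.2 and HOPX at 5.72 against at most 0.70. SFTPB, the surfactant protein itself, reached 4.45 CPM (21 UMIs). On the other side, SLC34A2, a phosphate transporter of alveolar cells, stood at 3.60 CPM against 5.30 to 218, and FOXA2 at 1.27 against 0.18 to 20.8. The start peak of SFTA2 stood at 9.95 CPM against at most 1.69, and that of NKX2-1 at 14.9 against at most 9.16, below the 2-fold limit.

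**Figure D5:**
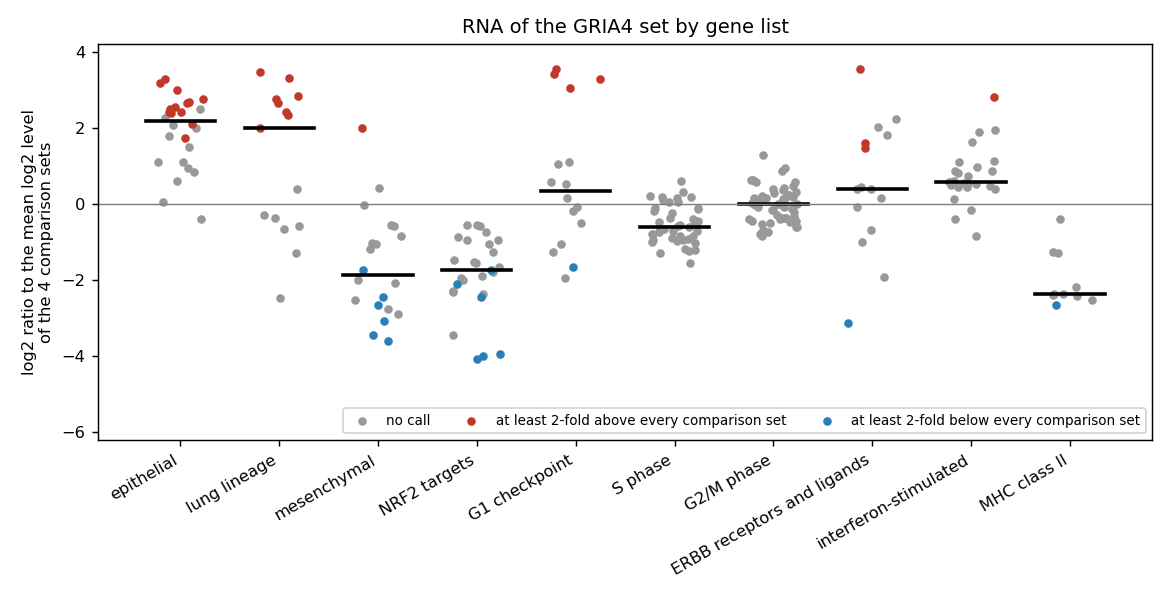
Log2 ratio of each tested gene's CPM plus 1 in the GRIA4 set to the mean log2 level of the 4 comparison sets, by gene list (1 point per gene, black lines are medians, red and blue mark genes at least 2-fold above or below every comparison set). The epithelial and lung lineage medians lie at 2.18 and 1.99, the mesenchymal and NRF2 medians at -1.86 and -1.74.

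Among the ERBB receptors and their ligands, 3 of 15 were highest and 1 lowest, against 2.93% and 2.57% of all genes tested. The list median was 0.39, or -0.04 against the S100A9 and DHRS2 sets only. Besides EGFR the highest were ERBB3, the kinase-poor partner receptor, at 62.1 CPM against at most 29.0 and EPGN (18 UMIs). ERBB2 stood at 48.1 CPM within 21.4 to 50.3. Of the ligands, EREG stood at 366 CPM and AREG at 312, close to the S100A9 set at 323 and 283, while EGF (7.42 CPM) and HBEGF (2.97 CPM) lay within the range of the others. LRIG1, a membrane protein that promotes loss of EGFR, was lowest, at 1.70 CPM against 13.2 to 37.8. Of 18 genes of MAPK output, 0 were highest and 0 lowest, near the 2.93% and 2.57% over all genes tested. The median of the MAPK list was -0.16, or 0.01 with TMM scaling, which moved the median of all genes by 0.15. DUSP6, a phosphatase induced by this pathway, stood at 19.9 CPM against 4.06 to 117.

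The NRF2 list, genes of the antioxidant response that KEAP1 holds in check, was low: 6 of 27 were lowest, 0 highest, and the median was -1.74. For all genes tested the shares were 2.57% and 2.93% and the median was -0.21. All 27 NRF2 genes lay below the mean log2 level of the comparison sets. AKR1C1, AKR1C2 and AKR1C3 stood at 3.18, 6.14 and 8.90 CPM, against lowest comparison levels of 12.7, 19.8 and 47.6 and highest ones of 843, 1407 and 629. These neighbouring, near-identical genes lie on chromosome 10 in 2 of the lower bins, and reads may be split between them. NQO1, a quinone reductase, stood at 69.3 CPM against 127 to 447, and TXNRD1, thioredoxin reductase, at 290 against 379 to 1200.

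Of 16 genes of the G1 checkpoint, 4 were highest and 1 lowest, with a median of 0.33. Besides CDK4 the highest were 3 neighbours on chromosome 9: CDKN2A, whose p16 product inhibits CDK4, at 314 CPM against at most 91.4, CDKN2B 2.39-fold above the next set, and MTAP at 344 against at most 122. The start peaks of CDKN2A and CDKN2B stood at 9.24 and 37.5 CPM against at most 3.26 and 15.1, while that of MTAP, 37.1, was close to the 35.1 of the RBFOX3 set. CDKN1A, the p21 inhibitor, stood at 0.64 CPM (3 UMIs, interval 0.13 to 1.86) against 2.83 to 5.42. Of 43 S-phase genes and 54 G2/M genes, 0 were called in either direction, near the 2.93% highest and 2.57% lowest over all genes. The medians of the S-phase and G2/M lists were -0.61 and 0.00, against -0.21 over all genes. Of the 54 G2/M genes, 27 lay above the mean log2 level of the comparison sets. Against the S100A9 and DHRS2 sets only, the medians were -0.07 and 0.65.

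Among the members themselves, 978 of 4629 genes with at least 200 UMIs (21.1%) varied more than 2 times as much as counting error alone, as a variance of Pearson residuals, against a median of 1.46. The largest variances belonged to MALAT1 (142) and to mitochondrial genes led by MT-CO2 (67.1), whose CPM had Spearman correlations with the mitochondrial share of -0.27 and 0.92. EGFR stood at 43.9, with 5th and 95th percentiles of 2146 and 17479 CPM, then NEAT1 (31.9), PMCH (31.7) and SYT14 (27.6). SYT14 was seen in 54.9% of members, with a median of 47.3 CPM and a 95th percentile of 1140. F3, which encodes tissue factor, and CCN1 were also uneven (22.7 and 20.8), and were seen in 65% and 62% of members. Their CPM had a Spearman correlation of 0.49 over the 297 members, the highest of the gene pairs compared. EGFR had 0.36 with F3 and 0.32 with CCN1, but -0.29 with MALAT1 and -0.19 with NEAT1.

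The 47 members with at most 5% mitochondrial RNA had a median of 5163 UMIs, and the 250 above 5% had 14366. EGFR stood at 7473 and 7566 CPM in them, and the median share of the EGFR window was 1.04% and 1.08%. CDKN2A was also close, at 324 and 313 CPM. EPCAM stood at 347 and 735 CPM, OS9 at 804 and 1581, and NKX2-1 at 160 and 85.6. The epithelial gene EPCAM was thus lower, and the lung-lineage gene NKX2-1 higher, in members with little mitochondrial RNA, without a test. The rule genes are not compared here, since a fixed minimum of UMIs raises their CPM in shallow barcodes.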

How the data were processed

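The deposited table holds counts per barcode, UMIs for 36601 genes and fragment-end counts for 187920 peaks. Per the submitters' processing notes, the authors used Cell Ranger ARC 2.0.0 and GRCh38. For barcode calling, peak calling and annotation, the method is not given in the sources. Positions in the features file are the deposited coordinates, on a scale other than a measurement, and are printed 1-based. Of the non-zero peak counts 83.3% are even, so most fragments add 2 counts, and peak intervals use counts divided by 2. The joint table pools all barcodes, and no column maps them to lines.

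Barcodes with under 1000 UMIs, under 1000 peak counts or over 20% mitochondrial UMIs were left out. Counts were summed per set and scaled to 1000000 per set (CPM) (python 3.11.15, numpy 2.4.6, scipy 1.17.1, pandas 2.3.3). A feature was tested with at least 20 UMIs or 100 peak counts over the 5 sets, without the rule genes, and called at 2-fold on CPM plus 1 against the highest or the lowest comparison set. There are no replicates, so no test across samples was possible and no p-value is given. The calls were tested on simulated data.

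The members, the 18 gene lists and the searches were chosen with earlier results of these data known. Named genes are the 20 with the largest ratio to the highest comparison set and the 10 with the smallest ratio to the lowest (at least 50 UMIs, outside the EGFR window). Also named are the rule genes and the genes of the EGFR window, the called and best known genes of each list, the 10 most variable genes among members, and 8 peaks. The genes of the stretches were chosen after their values were seen. The lists are ERBB receptors and ligands, MAPK output, lung lineage, epithelial, mesenchymal, mucins and secretory, NRF2 targets, G1 checkpoint, S phase, G2/M phase, interferon-stimulated, MHC class I, MHC class II, glutamate receptors, receptor tyrosine kinases, immune cells, endothelial cells and red cells. Peak sequences were not searched, since no genome was used here, and motifs were read in RefSeq promoters instead. Alternatives covered the set rule, scaling (TMM factors, edgeR 4.0.16), fold, filters, pseudocount, binarised peaks and the EGFR window. Added after seeing the data were the S100A9 and DHRS2 sets as the only comparison, and 5% to 20% mitochondrial RNA in every set.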

Additional observations from a re-analysis of the deposited data

Results flagged for a closer look

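Barcodes outside the 5 sets also carried the chromatin signal of the members. Of 598 barcodes in no set, 141 (23.6%) had a share of peak counts within 500 kb of the EGFR start at or above 0.452%, the 5th percentile of the members. Among the comparison barcodes 13 of 1909 did. Of the 141, 30 had no UMI of the 4 rule genes, 48 had 1 and 63 had 2 or more, with a median depth of 8807 UMIs. Of 356 barcodes above the mitochondrial limit, 188 reached that share. Whether these are further cells of the same line or mixed barcodes was not tested.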

How the results depend on the processing

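With 1 library of each kind, there was no replicate to leave out. The depth of the members, 4719918 UMIs and 5627110 peak counts, limits genes below about 1 CPM. No analysis that pairs samples was possible because there are no replicates, while RNA and chromatin counts were paired by barcode.

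The set held 84 barcodes at a mitochondrial limit of 10%. Genes highest in members numbered 168 at 4-fold, 366 with 5 CPM added and 1054 against the S100A9 and DHRS2 sets only. Genes lowest numbered 112, 190 and 1381 under these 3 settings and 947 at the 10% limit. Peaks highest numbered 678, 1607 and 5931 under the 3 settings, 2002 at the 10% limit, 2313 at 90% purity, 6873 with no minimum counts and 1145 with binarised peaks. Peaks lowest numbered 155, 196, 9361 and, at the 10% limit, 4153. Against those 2 sets only, 86 bins of 1 Mb were higher and 68 lower. TMM scaling gave 708 genes highest and 412 lowest. Of 199 highest genes with a tested peak over the RefSeq promoter, 25.1% had a highest one, against 0.931% of 10525 genes.

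The members' EGFR window share was 1.08% at 90% purity and 1.08% at a minimum sum of 5, 1.00% at the 10% limit, 1.32% in a window of 1 Mb and 0.443% with binarised peaks. Its ratio to the highest comparison set was 5.24 with binarised peaks and 5.36 within 5% to 20% mitochondrial RNA.

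Of 170 list medians under alternatives, 17 moved by over 1.5-fold. In 20 of the 170 the sign differed, over 7 lists whose medians lay within 0.39 of 0: ERBB, MAPK output, G2/M, MHC class I, mucins, receptor tyrosine kinases and immune genes. Against the S100A9 and DHRS2 sets only, medians were 0.65 for G2/M, -1.23 for MHC class I, -3.61 for MHC class II, 1.51 for epithelial genes, -0.53 for immune genes and -0.99 for mucins. At the 10% limit they were -0.72 for G2/M, -1.64 for MHC class II and -3.39 for endothelial genes. At 90% purity they were -1.62 for MHC class II, -2.42 for endothelial genes, -1.73 for glutamate receptors and -0.77 for immune genes. The arithmetic mean gave -3.49 for MHC class II and -0.98 for mucins. Endothelial genes had -0.22 with no mitochondrial limit and -2.88 within 5% to 20%. Of 270 values of the 30 named genes, 46 moved by over 1.5-fold and 0 changed direction. The cause of these shifts was not tested.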

Other observations

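Calls in the remaining gene lists are given here beside the shares over all genes tested, 2.93% highest and 2.57% lowest. Of 26 interferon-stimulated genes 1 was highest, IFI44L at 87.7 CPM against at most 35.4, with a list median of 0.58. Of 12 genes of MHC class I, 0 were called in either direction, with a median of -0.12, or 0.06 with TMM scaling. Of 10 genes of MHC class II, which presents antigen to helper T cells, 0 were highest and 1 lowest, HLA-DPA1 at 5.51 CPM against 12.2 to 297, with a median of -2.37. The mucin and secretory list had 2 of 16 genes highest, MUC16, the CA-125 mucin, at 379 CPM against at most 73.5 and CEACAM5 at 16.9 against at most 6.81.

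Of 17 other glutamate receptor genes, 0 were highest and 1 was lowest, GRIK1 at 1.06 CPM, with a median of -1.03. For a list of this size these counts were near the 2.93% highest and 2.57% lowest over all genes tested. Of 17 receptor tyrosine kinases, 2 were highest, MET, the receptor of hepatocyte growth factor, at 773 CPM against at most 381 and FGFR2 at 6.14 against at most 2.27. AXL and FGFR1 were lowest, FGFR1 at 6.36 CPM against 51.9 to 108. Markers of cells other than the lines were scarce, with 7 of 12 immune genes, 3 of 8 endothelial genes and 4 of 5 red cell genes at 0 UMIs. Of 4 immune genes tested 1 was lowest, CD14, and the list summed to 8.47 CPM in members against 5.30 to 19.3. Of 2 endothelial genes 1 was lowest, PECAM1, with a sum of 5.30 against 9.10 to 98.4. No red cell gene passed the count filter, with a sum of 0.42 CPM.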
